A study of Mus musculus with 217 samples.

Results

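The genes described here carry the signals of tumor necrosis factor (TNF) and interleukin-1 (IL-1). They are the ligands *Tnf*, *Il1a* and *Il1b*, the receptors *Tnfrsf1a*, *Tnfrsf1b*, *Il1r1* and *Il1rap*, the decoy receptor *Il1r2*, the receptor antagonist *Il1rn*, and *Csf3*, which encodes granulocyte colony-stimulating factor (G-CSF). They were taken by name, with earlier results of these data known, and are 10 of the 52550 genes counted. All 10 were found in the files by their Ensembl identifiers, and all 10 passed the filter on low counts in each time course. The samples come from RiboTagEC mice, adult C57BL/6J animals with the genotype Cdh5CreERT2/+; Rpl22HA/+. In these mice the *Cdh5* (VE-cadherin) promoter drives a tamoxifen-inducible Cre, and recombination adds an HA tag to the ribosomal protein *Rpl22*, so that mRNA bound to ribosomes of endothelial cells (ECs) can be pulled down from homogenized tissue. Every animal, controls included, carried both alleles and had received tamoxifen, 5 mg by gavage 4 times at 4 to 6 weeks of age. Brain, lung and heart were taken from mice labelled control (0 hr) and from mice killed 6, 24, 48, 72 or 168 hr after an intraperitoneal injection of 10 mg/kg lipopolysaccharide (LPS), a component of the bacterial outer membrane.

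TNF acts on a pair of receptors. *Tnfrsf1a* (TNFR1) has a death domain and is made by most cells, whereas *Tnfrsf1b* (TNFR2) lacks it and is prominent on leukocytes and ECs. IL-1α and IL-1β bind *Il1r1*, which then recruits the accessory chain *Il1rap* and signals through the adaptor *Myd88*. *Il1r2* binds the same ligands without a signaling domain, and *Il1rn* occupies *Il1r1* without activating it, so that both hold IL-1 back. In ECs either pathway switches on adhesion molecules, chemokines and colony-stimulating factors, among them G-CSF, the hormone that drives neutrophil production and release.

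Positions are given on the mouse build mm10 (GRCm38) and cover each gene from its first to its last annotated exon. *Tnf* lies at chr17:35199381-35202007 on the minus strand, *Tnfrsf1a* at chr6:125349362-125362484 on the plus strand and *Tnfrsf1b* at chr4:145213463-145246870 on the minus strand. *Il1a* (chr2:129299610-129309972) and *Il1b* (chr2:129364570-129371139) are neighbours on the minus strand of chromosome 2, and *Il1rn* (chr2:24336853-24351494) lies on the plus strand of the same chromosome. *Il1r2* (chr1:40074079-40125231) and *Il1r1* (chr1:40225080-40317257) are neighbours on the plus strand of chromosome 1. *Il1rap* (chr16:26581704-26730117) and *Csf3* (chr11:98701263-98703629) are both on the plus strand. Exons of *Il1a* share 222 bases with Gm14023, those of *Il1b* 25 bases with its antisense gene *Il1bos* and those of *Il1rap* 552 bases with the antisense gene Gm20319. Whether reads were counted by strand is not given in the sources used here, so counts of these 3 genes may include reads of the partner gene.

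Since the 3 ligand genes rose together in brain and heart ECs at 6 hr, as described further on, the 250 bases before their annotated starts are shown, from RefSeq on GRCm38.p6. All 3 genes lie on the minus strand, and each sequence is written 5′ to 3′ toward the gene, with motif matches in capitals.
*Tnf*, chr17:35202008-35202257: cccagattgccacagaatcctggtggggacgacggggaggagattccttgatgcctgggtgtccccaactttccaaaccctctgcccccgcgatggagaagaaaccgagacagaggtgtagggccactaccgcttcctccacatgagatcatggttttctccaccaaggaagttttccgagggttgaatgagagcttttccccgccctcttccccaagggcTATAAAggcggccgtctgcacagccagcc
*Il1a*, chr2:129309973-129310222: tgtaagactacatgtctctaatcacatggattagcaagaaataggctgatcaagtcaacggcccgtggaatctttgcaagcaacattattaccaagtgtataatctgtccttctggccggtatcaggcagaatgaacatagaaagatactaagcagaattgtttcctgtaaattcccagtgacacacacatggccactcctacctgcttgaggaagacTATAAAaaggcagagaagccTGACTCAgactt
*Il1b*, chr2:129371140-129371389: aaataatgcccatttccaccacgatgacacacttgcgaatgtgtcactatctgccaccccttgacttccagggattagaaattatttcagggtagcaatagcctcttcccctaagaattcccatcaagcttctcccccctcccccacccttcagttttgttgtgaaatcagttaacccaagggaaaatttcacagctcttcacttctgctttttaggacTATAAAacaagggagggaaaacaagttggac
Windows from 250 bases before to 50 bases after the start were searched on both strands for TATAAA, for TGANTCA (AP-1 type) and for an NF-kappaB type motif, GGG and TTTCC with any 2 bases between them. Of 32851 such windows of all genes, 13.6% held TATAAA, 7.81% TGANTCA and 1.63% the NF-kappaB type motif. TATAAA began 29 bases before the start of *Tnf*, 32 before that of *Il1a* and 31 before that of *Il1b*, on the strand of the gene. In *Il1a*, TGACTCA began 12 bases before the start. *Il1rn* was the only member with a match to the NF-kappaB type motif, 51 bases before an annotated start, and the 30 bases around it, with the match in capitals, are
*Il1rn*, chr2:24345310-24345339: ggaaatatgaGGGTTTTTCCgcttctgaca
A further TGAGTCA began 141 bases before another start of *Il1rn*. Windows were at hand for 9 of the 10 members (all but *Csf3*), 12 windows in all, and 4 of the 9 members held a match. What is said here of motifs in the members holds for those 9 only. These are matches of letters in a window, and no binding was measured.

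Of 98 libraries (217 sequencing runs, summed per library), 18 were left out because less than 3% of their reads fell on genes. Counts on genes ran from 7226796 to 32891759 in the kept brain libraries, from 284457 to 43417945 in the lung libraries and from 8136031 to 33050750 in the heart libraries, 80 libraries in all. At 0, 6, 24, 48, 72 and 168 hr, brain and heart each had 5, 5, 4, 6, 4 and 4 libraries and lung had 4, 4, 2, 6, 4 and 4. Levels are counts per 1000000 (CPM) of the scaled library size (TMM), listed in replicate order, and 3 counts were taken as the floor below which a level is not told from 0. Fitted folds over controls at or below this floor are not exact. The library just inside the 3% limit, lung 6 hr replicate 4, had 3.40% of reads on genes and 284457 counts. TMM scaled its library size far below these counts, so that 1 count equals 28.1 CPM there. That value comes from the scaling as well as from the low depth. There *Csf3* and *Il1rap* had 1 count each and the other 8 genes 0. Just outside the limit was lung 24 hr replicate 2, at 2.75%.

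The names of the deposited files follow 4 patterns, called library series here, and the series was a covariate in the fits unless another design is named. All libraries of series 3 were left out, and series 4 holds no 0 hr library. At 6 hr, all kept libraries are of series 2 except those of a single mouse of series 1 (brain replicate 6, heart replicate 5 and lung replicate 4). In brain and heart that mouse stood apart from the other 6 hr libraries and near the 0 hr libraries, with *Csf3* at 0.766 CPM in brain and 0 in heart. It was kept, since its labels give 6 hr after LPS, and the 6 hr tests are given with and without it, as are the later calls that it changes, since all times of a tissue share a fit. At 48 hr the 2 libraries of series 2 stood below those of series 1 and 4 for *Csf3* in every tissue, so the 48 hr results are also given within and without series 2. The mouse behind a library is not in the labels and was read from the file names.

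Endothelial identity was checked with 10 fixed markers (*Pecam1*, *Cdh5*, *Kdr* and others), all detected in each tissue. At 0 hr their summed level ran from 9516 to 10556 CPM in heart and from 8527 to 11457 CPM in lung, but from 1119 to 2400.3 CPM in brain. Brain libraries also carried neuron markers (1050.0 to 4262 CPM over 6 genes at 0 hr) and astrocyte markers (658 to 1791 CPM over 5), lung libraries alveolar epithelial markers (2125 to 10469.8 CPM over 6), and heart libraries cardiomyocyte markers (2893 to 5582 CPM over 6 at 0 hr and 3965 to 7659 CPM at 6 hr). The summed fibroblast and mural markers (8 genes) had medians in brain of 1218 CPM at 0 hr, 3897 at 24 hr and 2191 at 48 hr, where 1 of 8 rose at each time, and in heart of 395, 836 and 1131 CPM, where 2 rose and 1 fell at 24 hr and 1 rose at 48 hr. Neuron markers in brain had medians of 2693, 818 and 758 CPM at these times, where 0 of 6 passed at 24 hr and 1 fell at 48 hr. At 6 hr the endothelial sum was 3812 to 9880.4 CPM in heart, where 8 of the 10 markers fell, 1348 to 6337 CPM in lung, where 2 of 10 fell, and 968 to 1681 CPM in brain, where 4 fell and *Cdh5* rose. Without the series 1 mouse 8 fell in heart, 1 in lung and 4 in brain, where 3 rose. Their part in the results below was not tested. In bulk pull-downs such as these, fewer cells of a type and less ribosome-bound RNA per cell cannot be told apart.

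The first question was which of the 10 genes changed in each EC bed after LPS and for how long. In brain ECs 9 rose at 6 hr (all but *Il1rap*), 8 at 24 hr (not *Il1b* or *Il1rap*), 8 at 48 hr (not *Il1r1* or *Il1rap*), *Il1r2* alone at 72 hr and none at 168 hr. In heart ECs 8 rose at 6 hr (not *Tnfrsf1a* or *Il1rap*), 6 at 24 hr (*Tnf*, *Tnfrsf1a*, *Il1r1*, *Il1r2*, *Il1rn* and *Csf3*), 8 at 48 hr (not *Il1a* or *Il1rap*) and none at 72 or 168 hr. In lung ECs 5 rose at 6 hr (*Tnf*, *Il1b*, *Il1r2*, *Il1rn* and *Csf3*), 3 at 24 hr (*Il1r2*, *Il1rn* and *Csf3*), and *Il1r2* alone at 48 and 72 hr. None of the 10 fell below 0 hr in any tissue at any time (edgeR quasi-likelihood test, p adjusted by Benjamini-Hochberg over all genes of the fit, threshold 0.05; such genes are called below). Of all genes tested in brain (19234), 6.44%, 11.2%, 14.2%, 3.53% and 0% passed at these 5 times. Of all heart genes (16024) the shares were 42.8%, 16.2%, 4.19%, 0.275% and 0%, and of all lung genes (17058) 4.83%, 0.375%, 0.598%, 0.193% and 0.0117%. At 168 hr 1 of the 30 member tests had an unadjusted p under 0.05 (*Il1a* in brain, where 828 of all genes had), and DESeq2 called 0 and limma-voom 0. In heart at 72 hr 7 of the 10 had an unadjusted p under 0.05, as had 943 of all 16024 genes, DESeq2 called 2 (beside 1.1% of all genes) and limma-voom 0 (0%).

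Without the series 1 mouse at 6 hr, the same 9 genes rose in brain ECs, *Tnfrsf1a* joined the other 8 in heart ECs and *Tnfrsf1b* joined the other 5 in lung ECs. Of all genes 14.3% passed in brain, 3.95% in lung and 58.4% in heart in these fits, so that in heart most genes passed. In brain the log2 fold changes (± SE, edgeR) were then *Tnfrsf1a* 1.93 ± 0.25 (adjusted p = 4.72e-06), *Tnfrsf1b* 1.90 ± 0.24 (adjusted p = 3.08e-06) and *Il1r1* 1.95 ± 0.34 (adjusted p = 1.85e-04) for the signaling receptors. The IL-1 ligands, decoy and antagonist had *Il1a* 4.98 ± 0.73 (adjusted p = 2.12e-05), *Il1b* 5.37 ± 0.91 (adjusted p = 1.45e-04), *Il1r2* 4.59 ± 0.57 (adjusted p = 2.20e-06) and *Il1rn* 8.54 ± 0.76 (adjusted p = 2.48e-08). In heart they were *Tnfrsf1b* 1.55 ± 0.21 (adjusted p = 1.29e-06), *Il1r1* 1.18 ± 0.27 (adjusted p = 6.23e-04) and *Il1r2* 6.21 ± 0.68 (adjusted p = 4.75e-08) for the receptors and decoy and *Il1a* 3.78 ± 0.76 (adjusted p = 1.60e-04) and *Il1b* 5.82 ± 0.84 (adjusted p = 2.94e-06) for the ligands. In lung they were *Tnf* 6.14 ± 1.58 (adjusted p = 0.0268), *Il1b* 4.68 ± 0.83 (adjusted p = 0.00211) and *Il1r2* 7.46 ± 0.99 (adjusted p = 3.11e-04), followed by *Il1rn* 6.07 ± 0.89 (adjusted p = 4.50e-04) and *Csf3* 9.13 ± 1.49 (adjusted p = 0.00111). Within series 2 alone, 9 genes rose in brain and 8 in heart at 6 hr, the same as with all libraries, beside 12.6% and 53.6% of all genes, and no gene was called in lung, where 3 libraries at 6 hr were set against 2 controls (adjusted p 0.159 or more).

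Calls at 24 to 72 hr changed with that mouse and with the test as well. Without it *Tnf* and *Tnfrsf1b* were also called at 72 hr in brain (adjusted p = 0.0115 and 0.00280), *Il1b* and *Tnfrsf1b* at 24 hr in heart (0.0422 and 0.0172), *Tnf* and *Il1rn* at 72 hr in heart (0.0140 and 0.0101) and *Il1rn* at 48 hr in lung (0.0445), while *Csf3* at 24 hr in lung was not. Of all genes 4.93% passed at 72 hr in brain, 26% and 1.14% at 24 and 72 hr in heart and 0.352% and 0.589% at 24 and 48 hr in lung in that fit. In brain limma-voom called 4 of the 10 at 48 hr (*Tnf*, *Tnfrsf1a*, *Tnfrsf1b* and *Il1r2*) and 0 at 72 hr, beside 9.41% and 2.64% of all genes, and DESeq2 9 and 6, beside 19.5% and 6.1%. In heart at 48 hr limma-voom called 2 (*Tnfrsf1a* and *Il1r1*), beside 1.95% of all genes, and DESeq2 8, beside 8.44%. In lung at 48 hr, where edgeR called *Il1r2* alone, limma-voom called 4 (*Tnf*, *Il1r2*, *Il1rn* and *Csf3*) and DESeq2 6, beside 0.967% and 2.98% of all genes.

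At 48 hr the calls depended on the series. Within series 2 they were *Il1r2* in brain and *Tnf*, *Il1b* and *Il1rn* in heart, with none in lung, beside 1.44%, 1.01% and 0% of all genes. Without series 2 they were *Tnf*, *Tnfrsf1a*, *Tnfrsf1b*, *Il1r2*, *Il1rn* and *Csf3* in brain, those 6 and *Il1r1* in heart, and *Il1r2* in lung, beside 14.7%, 8.62% and 0.273% of all genes. At 24 hr *Il1r1* in brain and *Il1rn* and *Csf3* in lung were not called without series 2 (adjusted p = 0.104, 0.239 and 0.0851).

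**Figure D1:**
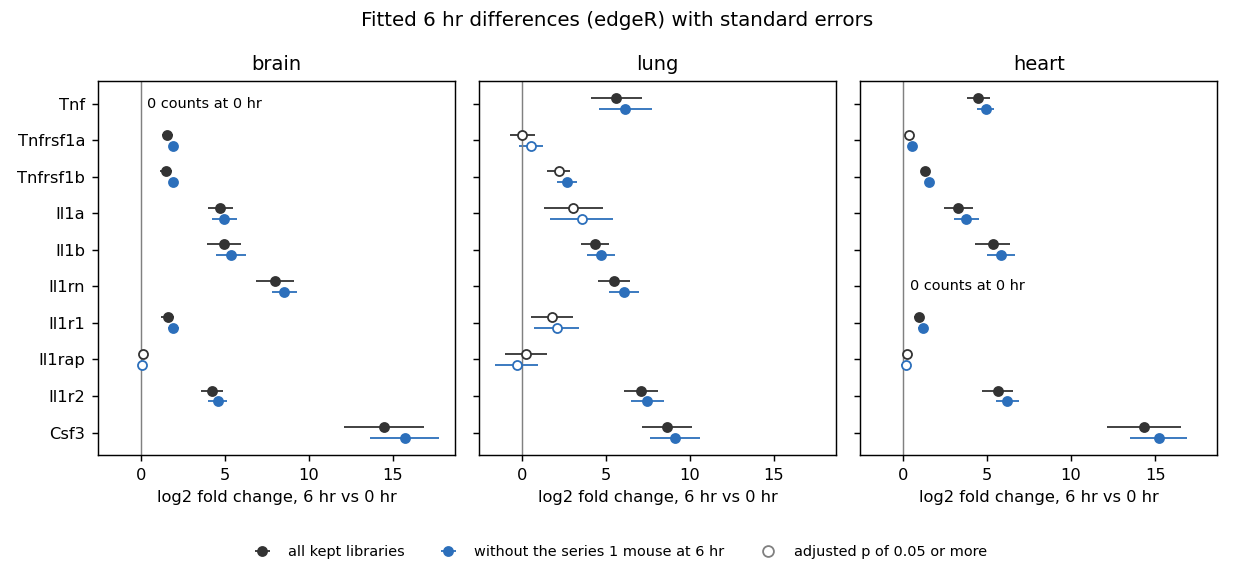
Fitted log2 fold change at 6 hr against 0 hr for each gene in brain, lung and heart ECs (x axis, log2 scale), with standard errors as bars. Black points use all kept libraries and blue points leave out the series 1 mouse, and open points had an adjusted p of 0.05 or more. *Csf3* lies farthest to the right in each tissue, at 14.48 in brain, 8.61 in lung and 14.33 in heart, while *Il1rap* lies near 0; genes with 0 counts at 0 hr are named without a point.

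*Tnf*, the soluble and membrane-bound trimeric ligand, went from 0 counts to a few CPM in brain ECs and from near 1 CPM to well above 10 CPM in heart ECs. In brain all 5 libraries at 0 hr had 0 counts, which together allow up to 0.0273 CPM (3 counts over the group). At 6 hr the brain libraries had 2.04, 5.93, 3.32, 0.516 and 0 CPM, and at 24 hr 2.15, 2.72, 0.674 and 1.32 CPM. All but the series 1 mouse lay above every 0 hr library, and the 4 others at 6 hr ran from the level of replicate 4 to that of replicate 2. Pooled over libraries the 6 hr level was at least 94.3-fold higher than 0 hr (106-fold without the series 1 mouse), with an edgeR adjusted p of 0.00116. The bound was 59.4-fold at 24 hr (adjusted p = 0.00266), 71.8-fold at 48 hr (adjusted p = 0.00190) and 16.3-fold at 72 hr, where the adjusted p was 0.0534 (0.0115 without the series 1 mouse at 6 hr). At 168 hr *Tnf* was at 0 to 0.334 CPM, with 3 of 4 libraries above the controls, a bound of 3.16-fold and an adjusted p of 0.903. The group held 9 counts in all and only replicate 1 was over the floor, so that bound rests largely on it.

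In heart ECs *Tnf* was measurable before LPS, at 0.961, 0.572, 1.27, 1.32 and 0.801 CPM. At 6 hr it was 49.8, 40.5, 17.7, 20.6 and 1.18 CPM, where the lowest value is the series 1 mouse and the other 4 libraries all exceeded every control. It rose (log2 fold change 4.49 ± 0.67 (SE), edgeR adjusted p = 4.10e-05), and without that mouse the log2 fold change was 4.92 ± 0.52. By 24 hr the heart libraries had 10.5, 21.2, 5.88 and 3.82 CPM, all above the controls (log2 fold change 3.56 ± 0.66 (SE), edgeR adjusted p = 0.00195). At 48 hr they ran from 2.05 to 8.82 CPM, again all above the controls (log2 fold change 2.88 ± 0.62 (SE), edgeR adjusted p = 0.00859), and within series 2 alone the 48 hr call held (log2 fold change 2.62 ± 0.47, adjusted p = 0.0227). At 72 hr the 4 libraries (1.96, 4.17, 4.58 and 7.37 CPM) still lay above every control, with an adjusted p of 0.117. It was 0.0209 without 72 hr replicate 1 (log2 fold change 2.98) and 0.0140 without the series 1 mouse at 6 hr (2.42 ± 0.51). Lung ECs gave 2.06, 0, 0.187 and 0.449 CPM at 0 hr and 53.5, 0, 7.65 and 0 CPM at 6 hr. Both groups included libraries at 0, and the 53.5 CPM of replicate 1 rests on 97 counts. The lung call at 6 hr (log2 fold change 5.63 ± 1.51 (SE), edgeR adjusted p = 0.0270) was lost without that replicate (log2 fold change 3.81, adjusted p = 0.129) or without 0 hr replicate 2 or 3. At 48 hr all 6 lung libraries (4.24 to 16.9 CPM) exceeded the controls, with an adjusted p of 0.133.

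**Figure D2:**
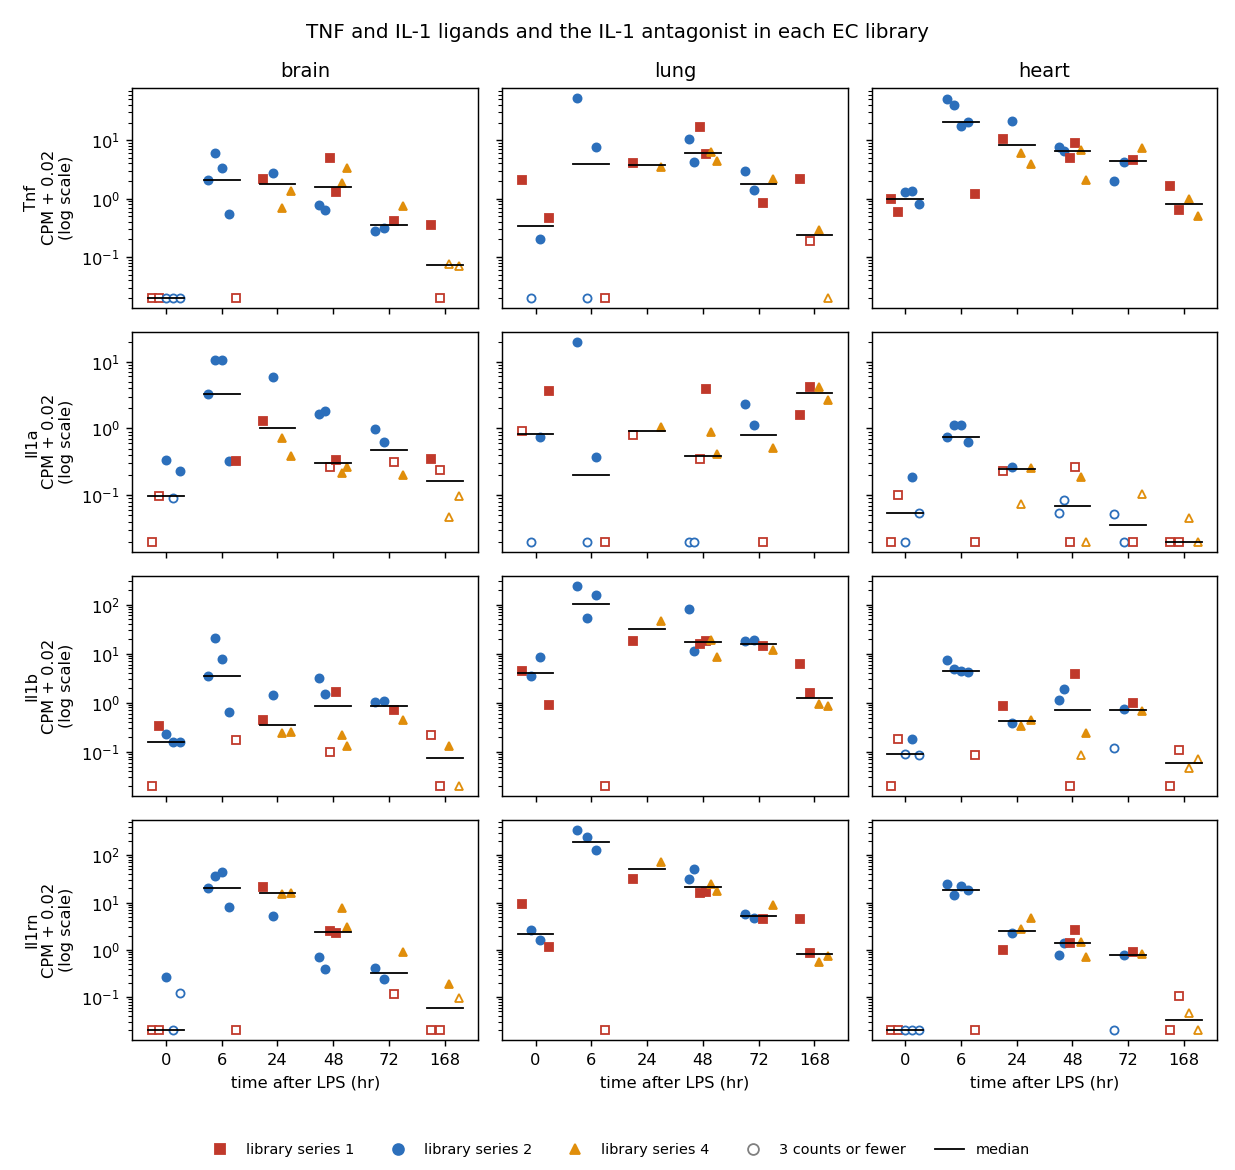
Level of *Tnf*, *Il1a*, *Il1b* and *Il1rn* in every kept library (y axis, CPM + 0.02 on a log scale) by time after LPS (x axis, hr, not to scale), with 1 column per tissue. Squares, circles and triangles are library series 1, 2 and 4, open symbols had 3 counts or fewer, and lines are group medians. At 6 hr the series 1 square in brain and heart sits with the 0 hr libraries, and the *Il1rn* medians rise from 0 to 20.5 CPM in brain and from 0 to 18.1 CPM in heart.

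*Tnfrsf1a*, the death-domain receptor of TNF, had the highest median level per kilobase of the 10 genes before LPS in each tissue, and rose in brain at 6, 24 and 48 hr and in heart at 24 and 48 hr. In brain its libraries had 95.0, 84.8, 57.4, 63.2 and 43.2 CPM at 0 hr, 150.3, 225, 156, 193 and 82.5 CPM at 6 hr and 340.0, 188, 363 and 388 CPM at 24 hr. Every 6 hr library but that of the series 1 mouse, and every 24 hr library, lay above all controls. The difference was a log2 fold change of 1.58 ± 0.33 (SE) at 6 hr (edgeR adjusted p = 0.00329) and 1.67 ± 0.35 at 24 hr (adjusted p = 0.00356). At 48 hr the brain libraries of series 2 had 67.3 and 53.1 CPM, among the controls, while the other 4 had 240.1 to 379 CPM. The 48 hr call (log2 fold change 1.15 ± 0.33 (SE), edgeR adjusted p = 0.0208) was not made within series 2 (log2 fold change 0.16 ± 0.23, adjusted p = 0.698) and was larger without it (1.72 ± 0.25, adjusted p = 0.00111). It was also lost when brain 0 hr replicate 1 or 2 or 48 hr replicate 3 was left out (adjusted p from 0.0586 to 0.0640).

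Heart ECs held *Tnfrsf1a* at 251, 297, 295, 311 and 275 CPM before LPS. They had 327, 466, 322, 431 and 281 CPM at 6 hr and 520.2, 527, 836 and 964 CPM at 24 hr. All 24 hr libraries exceeded the controls, as did the 6 hr libraries other than the series 1 mouse. At 6 hr the log2 fold change was 0.37 ± 0.20 (SE) with an edgeR adjusted p of 0.129, and without the series 1 mouse it was 0.52 ± 0.19 with an adjusted p of 0.0224. At 24 hr it rose (log2 fold change 0.92 ± 0.22 (SE), edgeR adjusted p = 0.0104), a call that was lost without 24 hr replicate 2 (adjusted p = 0.0527). At 48 hr all 6 libraries (336 to 901 CPM) lay above the controls (log2 fold change 0.77 ± 0.20 (SE), edgeR adjusted p = 0.0289), and leaving out 0 hr replicate 1, 2 or 5 or 48 hr replicate 3 ended that call. In lung ECs *Tnfrsf1a* was 40.7, 45.0, 41.4 and 329 CPM at 0 hr. Replicate 4 was far above the other 3 controls, and no lung library after LPS exceeded all of them, and no lung time point was called (adjusted p 0.948 or more). Replicate 4 had 56.2% of reads on genes and the other controls 18.8, 19.2 and 28.6%. At 168 hr the libraries with 57.1, 50.5 and 61.0% had 262, 225 and 269 CPM, and that with 23.8% had 124 CPM. However, 6 hr replicate 2, with 8.12%, had 164 CPM. The part of this share in the lung levels was not tested.

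*Tnfrsf1b*, the second TNF receptor, rose in brain and heart ECs. In brain the libraries had 9.42, 12.2, 5.03, 6.66 and 5.52 CPM at 0 hr and 18.1, 31.6, 18.8, 11.7 and 6.67 CPM at 6 hr. Replicates 1 to 3 at 6 hr stood above every control, replicate 4 and the series 1 mouse within their range. The log2 fold change was 1.51 ± 0.34 (SE) at 6 hr (edgeR adjusted p = 0.00643), 1.42 ± 0.37 at 24 hr (adjusted p = 0.0149) and 1.35 ± 0.33 at 48 hr (adjusted p = 0.00932). The brain levels at 24 hr were 23.8, 13.6, 20.6 and 26.1 CPM, all above the controls. In heart ECs the gene went from 21.9, 24.2, 24.0, 28.3 and 20.0 CPM at 0 hr to 79.4, 79.2, 60.0, 48.0 and 27.6 CPM at 6 hr. All but the series 1 mouse, whose value lay among the controls, were above 0 hr (log2 fold change 1.29 ± 0.25 (SE), edgeR adjusted p = 4.59e-04). At 24 hr the 4 heart libraries (38.7, 33.9, 44.8 and 37.3 CPM) were still above every control with an adjusted p of 0.0536, while without the series 1 mouse at 6 hr the gene was called (log2 fold change 0.73 ± 0.22, adjusted p = 0.0172). At 48 hr (33.3 to 63.7 CPM) the gene passed (log2 fold change 0.97 ± 0.24 (SE), edgeR adjusted p = 0.0220), though not without 0 hr replicate 1, 2 or 5.

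In lung ECs *Tnfrsf1b* was 48.0, 27.1, 23.8 and 13.3 CPM at 0 hr and 202, 135, 253 and 0 CPM at 6 hr. Apart from the shallow library at 0, the 6 hr libraries lay above all controls. With that library the log2 fold change was 2.20 ± 0.68 (SE, edgeR adjusted p = 0.0535), and without it 2.67 ± 0.60 (adjusted p = 0.0117). Leaving out 6 hr replicate 2 or 3 or 0 hr replicate 1 also gave a call. Lung levels stayed above the controls in both 24 hr libraries (77.2 and 120.0 CPM) and in all 4 at 72 hr (104, 104, 62.9 and 70.9 CPM), with adjusted p of 0.446 and 0.444.

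**Figure D3:**
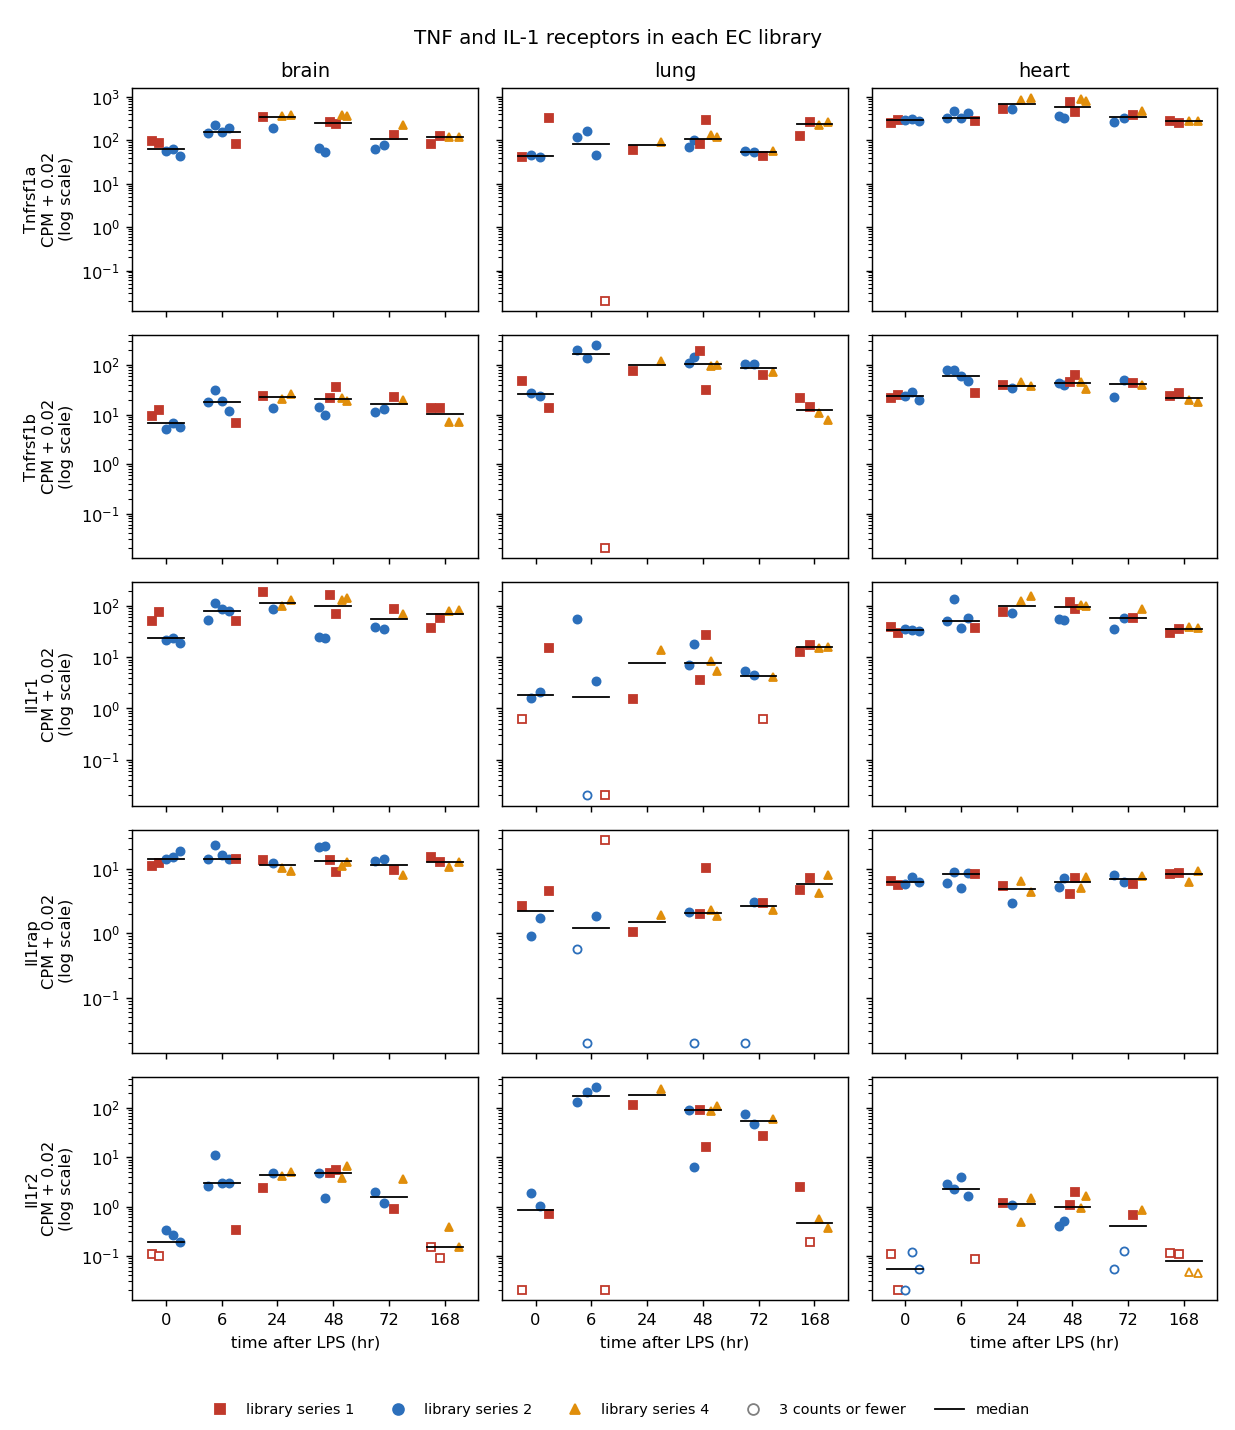
Level of the receptors and the decoy receptor in every kept library (y axis, CPM + 0.02 on a log scale) by time after LPS (x axis, hr, not to scale), with 1 column per tissue. Squares, circles and triangles are library series 1, 2 and 4, open symbols had 3 counts or fewer, and lines are group medians. *Il1r2* shows the widest range of the receptors, from a median of 0.851 CPM at 0 hr to 173 CPM at 6 hr in lung, and *Il1rap* in brain stays between medians of 11.2 and 14.3 CPM.

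*Il1b*, the IL-1 ligand that is cleaved by caspase-1, rose at 6 hr in all 3 tissues, from a baseline that was higher in lung. Lung ECs had 4.42, 3.47, 8.60 and 0.898 CPM at 0 hr and 240.5, 54.4, 154 and 0 CPM at 6 hr. The 3 deeper 6 hr libraries exceeded every control and the shallow library had 0 counts. The gene rose at 6 hr (log2 fold change 4.34 ± 0.84 (SE), edgeR adjusted p = 0.00380) and was not called later, with adjusted p of 0.0533 at 24 hr and 0.0711 at 48 hr (0.0449 without 48 hr replicate 2), although both 24 hr libraries (17.7 and 45.8 CPM) and 5 of the 6 at 48 hr lay above the controls. In heart ECs *Il1b* went from 0, 0.164, 0.0708, 0.165 and 0.0668 CPM (0 to 5 counts a library) to 7.46, 4.84, 4.32, 4.26 and 0.0658 CPM. The first 4 of these 6 hr libraries lay far above the controls and the series 1 mouse had 1 count (log2 fold change 5.34 ± 1.03 (SE), edgeR adjusted p = 4.62e-04). At 24 hr the heart libraries had 0.846, 0.374, 0.318 and 0.434 CPM, above every control but with an adjusted p of 0.0905 (0.0422 without the series 1 mouse at 6 hr). At 48 hr they spread from 0 to 3.85 CPM, and the call there (log2 fold change 3.66 ± 0.99 (SE), edgeR adjusted p = 0.0354) was lost when any of the 5 control libraries, or 48 hr replicate 2 or 4, was left out.

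Brain ECs held *Il1b* at 0, 0.316, 0.211, 0.139 and 0.138 CPM before LPS and at 3.41, 20.6, 7.82, 0.620 and 0.153 CPM at 6 hr. Replicate 2 was the highest, and the series 1 mouse lay among the controls. It rose at 6 hr (log2 fold change 4.97 ± 1.00 (SE), edgeR adjusted p = 0.00266), was not called at 24 hr (levels 0.430, 1.43, 0.225 and 0.232 CPM, adjusted p = 0.0931) and was called at 48 hr (log2 fold change 3.25 ± 0.96 (SE), edgeR adjusted p = 0.0263). At 48 hr both series 2 libraries and 1 of series 1 exceeded the controls and the other 3 did not, and leaving out 48 hr replicate 1 or any of 4 control libraries ended the call.

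*Il1a*, the other IL-1 ligand, which is active without cleavage, rose in brain and heart ECs at low levels. In brain it was 0, 0.0790, 0.317, 0.0697 and 0.207 CPM at 0 hr and 3.29, 10.6, 10.5, 0.310 and 0.307 CPM at 6 hr. Replicates 1 to 3 stood above all controls, and replicate 4 and the series 1 mouse within their range. The log2 fold change was 4.74 ± 0.75 (SE) at 6 hr (edgeR adjusted p = 3.22e-04), 4.84 ± 0.79 at 24 hr (adjusted p = 5.56e-04) and 3.18 ± 0.76 at 48 hr (adjusted p = 0.00814). The brain levels at 24 hr were 1.29, 5.96, 0.706 and 0.364 CPM, all above the controls. At 48 hr the brain libraries of series 2 had 1.63 and 1.81 CPM, and the others 0.197 to 0.318 CPM, against 0 to 0.317 CPM at 0 hr. Without series 2 the gene was not called at 48 hr (adjusted p = 0.0559). No fold is given there, since the remaining controls had 0 and 0.0790 CPM, below the floor. Heart ECs had 0 to 5 counts a library before LPS and 0.729, 1.12, 1.10, 0.615 and 0 CPM at 6 hr. Apart from the series 1 mouse at 0, these were above every control (log2 fold change 3.29 ± 0.87 (SE), edgeR adjusted p = 0.00491), and no later heart time point was called. In lung ECs *Il1a* was 0.884, 0, 0.716 and 3.67 CPM at 0 hr and 19.9, 0, 0.360 and 0 CPM at 6 hr, groups that overlap, and no time point was called (adjusted p 0.288 or more).

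*Il1rn*, the secreted antagonist that blocks *Il1r1*, rose at 6 hr in all 3 tissues, in heart ECs from 0 counts. In heart all 5 control libraries had 0 counts, which allows up to 0.0267 CPM over the group, and the 6 hr libraries had 24.0, 14.4, 22.2, 18.1 and 0 CPM. The series 1 mouse was at 0 and the other 4 were far above. Pooled, the 6 hr level was at least 602-fold higher than at 0 hr (726-fold without the series 1 mouse), with an edgeR adjusted p of 4.04e-05. At 24 hr heart libraries had 0.952, 2.20, 2.75 and 4.69 CPM, at least 112-fold above 0 hr (adjusted p = 0.00407), and at 48 hr all 6 were above 0 hr, at least 46.4-fold when pooled (adjusted p = 0.0108). At 72 hr the bound was 20.8-fold, with replicate 1 at 0 and an adjusted p of 0.196 (0.0346 without that replicate and 0.0101 without the series 1 mouse at 6 hr). At 168 hr the 4 heart libraries held 2 counts in all.

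Brain ECs held 0, 0, 0.246, 0 and 0.103 CPM of *Il1rn* at 0 hr, 10 counts in all. At 6 hr they had 20.5, 36.9, 44.2, 8.02 and 0 CPM, at 24 hr 21.7, 5.28, 15.0 and 16.1 CPM. All of these but the series 1 mouse at 0 lay above every control. *Il1rn* rose at 6 hr (log2 fold change 7.98 ± 1.14 (SE), edgeR adjusted p = 1.69e-04), at 24 hr (log2 fold change 6.56 ± 1.15 (SE), edgeR adjusted p = 9.99e-04) and at 48 hr (log2 fold change 4.06 ± 1.16 (SE), edgeR adjusted p = 0.0223). The 48 hr call was not made within series 2 (log2 fold change 2.21 ± 0.99, adjusted p = 0.291), was made without it (adjusted p = 0.00424, with no fold given since the series 1 controls held 0 counts), and was lost without control replicate 1, 2 or 4. In lung ECs *Il1rn* went from 9.13, 2.58, 1.62 and 1.12 CPM at 0 hr to 339.8, 240.4, 131 and 0 CPM at 6 hr and 31.9 and 71.2 CPM at 24 hr. The shallow 6 hr library had 0 counts and all other libraries at both times lay above the controls. The lung log2 fold change was 5.47 ± 0.95 (SE) at 6 hr (edgeR adjusted p = 0.00160) and 4.09 ± 0.94 at 24 hr (adjusted p = 0.0376). The 24 hr call, over 2 LPS libraries, was lost without either of them or without control replicate 2, 3 or 4. At 48 hr all 6 lung libraries (15.7 to 50.5 CPM) exceeded the controls with an adjusted p of 0.0868, and 0.0140 without control replicate 1, whose 9.13 CPM was the highest at 0 hr.

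*Il1r1*, the signaling receptor of IL-1, rose moderately in brain and heart ECs and was low in lung ECs. In brain the controls had 50.1, 75.9, 22.0, 23.8 and 19.0 CPM, where the 2 series 1 libraries, replicates 1 and 2, were the highest. At 6 hr brain ECs had 52.9, 116, 86.0, 79.2 and 51.5 CPM and at 24 hr 185, 87.3, 98.9 and 133 CPM. Replicates 2 to 4 at 6 hr and every library at 24 hr lay above all controls. The log2 fold change was 1.59 ± 0.39 (SE) at 6 hr (edgeR adjusted p = 0.0106) and 1.46 ± 0.39 at 24 hr (adjusted p = 0.0188), and the 24 hr call was lost without 24 hr replicate 1 or 2. At 48 hr the brain libraries of series 2 had 24.6 and 23.6 CPM and the other 4 had 69.4 to 165 CPM, with an adjusted p of 0.0976, and leaving out 48 hr replicate 1 or 2, the series 2 libraries, gave a call (adjusted p = 0.0494 and 0.0438). In heart ECs *Il1r1* was 38.8, 29.1, 35.5, 33.5 and 33.0 CPM at 0 hr and 51.7, 135, 37.3, 59.3 and 37.3 CPM at 6 hr. Replicates 1, 2 and 4 were above the controls, and replicate 2 was the highest by far. The 6 hr call (log2 fold change 0.94 ± 0.28 (SE), edgeR adjusted p = 0.0112) was lost without it (log2 fold change 0.48, adjusted p = 0.0750). At 24 hr all 4 heart libraries (76.7, 73.9, 123 and 160.2 CPM) and at 48 hr all 6 (53.2 to 119.6 CPM) exceeded the controls (log2 fold change 1.28 ± 0.32 (SE), edgeR adjusted p = 0.0113 at 24 hr, and 1.12 ± 0.28 with adjusted p = 0.0237 at 48 hr), though the 48 hr call was lost without 0 hr replicate 1 or 2 or 48 hr replicate 3. Lung ECs had 0.589, 1.56, 2.09 and 15.0 CPM at 0 hr, and no lung time point was called. At 168 hr they had 12.6, 17.7, 15.2 and 15.8 CPM, with 3 of the 4 libraries above every control. The control at 15.0 CPM had 56.2% of reads on genes and the other controls 18.8 to 28.6%. The 168 hr library at 12.6 CPM had 23.8% and the others 50.5 to 61.0%. However, 6 hr replicate 1, with 6.93%, had 56.8 CPM. The part of this share in the lung levels was not tested.

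*Il1rap*, the accessory chain that *Il1r1* needs to signal, was the only member not called after LPS in any tissue. Brain ECs had 10.8, 12.2, 13.9, 15.1 and 18.5 CPM at 0 hr and 14.3, 23.2, 16.0, 14.0 and 14.3 CPM at 6 hr. Only replicate 2 at 6 hr exceeded the controls. The 6 hr log2 fold change was 0.15 ± 0.17 (SE) in brain (edgeR adjusted p = 0.725) and 0.21 ± 0.23 in heart (adjusted p = 0.469). Heart levels were 6.47, 5.48, 5.70, 7.50 and 6.21 CPM at 0 hr and 5.29, 2.95, 6.36 and 4.30 CPM at 24 hr. Of the 24 hr libraries 3 lay below every control and the other within their range (log2 fold change -0.51 ± 0.27, adjusted p = 0.176). In lung ECs the level at 0 hr was 0.884 to 4.56 CPM. At 6 hr 2 of the 4 lung libraries lay below every control and 1, the shallow library with 1 count, above. At 168 hr the lung level was 4.22 to 7.91 CPM, with 3 of the 4 libraries above every control. These 3 had 23.8, 57.1 and 61.0% of reads on genes and the other 50.5%. The highest lung control, at 4.56 CPM, had 56.2% and the other controls 18.8 to 28.6%. The part of this share was not tested.

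*Il1r2*, the decoy that binds IL-1 without signaling, was the member called at the most time points, rising at 6, 24, 48 and 72 hr in brain and lung ECs. Lung ECs had 0, 1.84, 1.03 and 0.673 CPM at 0 hr, 133, 214, 271 and 0 CPM at 6 hr and 118 and 247 CPM at 24 hr. Apart from the shallow library at 0, every LPS library lay above every control, and this held for all 6 libraries at 48 hr (6.36 to 109 CPM) and all 4 at 72 hr (75.4, 48.3, 26.7 and 61.3 CPM). The log2 fold change was 7.11 ± 1.02 (SE) at 6 hr (edgeR adjusted p = 6.14e-04), 7.78 ± 1.11 at 24 hr (adjusted p = 3.12e-04), 6.20 ± 0.96 at 48 hr (adjusted p = 6.32e-04) and 5.77 ± 0.95 at 72 hr (adjusted p = 0.00151). The 72 hr difference was not called without series 2 (6.26 ± 1.27, adjusted p = 0.0784) or within it, where no gene passed (5.40 ± 1.24, adjusted p = 1.00). At 168 hr the lung libraries (2.46, 0.169, 0.543 and 0.347 CPM) overlapped the controls.

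In brain ECs *Il1r2* was 0.0906, 0.0790, 0.317, 0.244 and 0.172 CPM (1 to 9 counts) at 0 hr and 2.57, 11.4, 3.07, 2.96 and 0.307 CPM at 6 hr. Only the series 1 mouse overlapped the controls. At 24, 48 and 72 hr every brain library stood above all controls, with medians of 4.46, 4.84 and 1.55 CPM. The log2 fold change was 4.23 ± 0.65 (SE) at 6 hr (edgeR adjusted p = 2.80e-04), 4.18 ± 0.68 at 24 hr (adjusted p = 5.56e-04), 4.58 ± 0.66 at 48 hr (adjusted p = 1.37e-04) and 3.11 ± 0.68 at 72 hr (adjusted p = 0.00751). Within series 2 the 48 hr difference was 3.70 ± 0.76 (adjusted p = 0.0413), and *Il1r2* was the only member called there in brain. At 72 hr it was not called within series 2 (2.70 ± 0.77, adjusted p = 0.151) or by limma-voom, and was called without series 2 (adjusted p = 0.0225). No fold is given without series 2, since the remaining controls had 0.0906 and 0.0790 CPM, below the floor. Heart ECs went from 0.0874, 0, 0, 0.0987 and 0.0334 CPM (0 to 3 counts) to 2.92, 2.24, 4.00, 1.66 and 0.0658 CPM at 6 hr. The series 1 mouse had 1 count and the others lay well above the controls (log2 fold change 5.63 ± 0.91 (SE), edgeR adjusted p = 8.73e-05). The heart differences at 24 hr (3.97 ± 0.96, adjusted p = 0.00977) and 48 hr (3.92 ± 0.92, adjusted p = 0.0148) were called too, but not without 24 hr replicate 2 or 0 hr replicate 2, respectively.

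*Csf3*, the gene of the neutrophil growth factor G-CSF, had the largest difference of the 10 genes in all 3 tissues at 6 hr, apart from the 2 genes with 0 counts at baseline, whose fold has a lower bound only. Brain ECs had 0.181, 0, 0.0704, 0.0697 and 0.103 CPM at 0 hr, 0 to 3 counts a library, and 1122, 1649, 1108, 258 and 0.766 CPM at 6 hr. The first 4 of these lay far above every control and the last, the series 1 mouse, had 10 counts, still above every control. At 24 hr the brain libraries had 960.2, 517, 2884 and 3959 CPM. *Csf3* rose in brain at 6 hr (log2 fold change 14.48 ± 2.38 (SE), edgeR adjusted p = 4.49e-04), at 24 hr (log2 fold change 12.44 ± 2.26 (SE), edgeR adjusted p = 0.00137) and at 48 hr (log2 fold change 11.03 ± 2.35 (SE), edgeR adjusted p = 0.00400). Heart ECs went from 0, 0.164, 0.0354, 0.165 and 0.0668 CPM to 1599, 2083, 2071, 738 and 0 CPM at 6 hr and 543, 648, 1280.1 and 1384 CPM at 24 hr. The series 1 mouse, at 0 counts, was the only one of these heart libraries within the control range (log2 fold change 14.33 ± 2.21 (SE), edgeR adjusted p = 5.42e-05 at 6 hr, and 11.86 ± 2.07 with adjusted p = 0.00146 at 24 hr). Without that mouse the 6 hr log2 fold change was 15.70 ± 2.04 in brain and 15.22 ± 1.69 in heart. All 6 hr libraries are then of series 2, and the series term rests on the other times. Within series 2 alone it was 13.61 ± 1.19 in brain and 14.04 ± 1.13 in heart. No brain control and 1 heart control held more than 3 counts, with 9 and 10 counts in all. The sizes of these fitted folds are therefore not exact.

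Lung ECs had 0, 1.16, 0.187 and 0 CPM at 0 hr, 132, 237, 143 and 28.1 CPM at 6 hr and 342 and 558 CPM at 24 hr. The value of 28.1 CPM is a single count in the shallow library, and the other LPS libraries at both times were far above every control. The gene rose at 6 hr (log2 fold change 8.61 ± 1.48 (SE), edgeR adjusted p = 0.00160) and at 24 hr (log2 fold change 7.62 ± 1.72 (SE), edgeR adjusted p = 0.0335). The 24 hr call was lost without the series 1 mouse at 6 hr (adjusted p = 0.0811), without series 2 (adjusted p = 0.0851, with the remaining controls at 0 counts), without either 24 hr library, or without control replicate 1, 3 or 4.

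For *Csf3* the 48 hr libraries of series 2 lay apart from the rest. In brain the 2 series 2 libraries had 1.56 and 0.0348 CPM and the other 4 had 2527, 163, 1954 and 2423 CPM. In heart the same mice gave 2.39 and 0.264 CPM against 435, 32.2, 917 and 225 CPM, and in lung 2 counts and 17 counts (the latter 3.60 CPM) against 302, 6.29, 442 and 246 CPM. In each tissue both series 2 libraries lay below the other 4. Within series 2 *Csf3* was not called at 48 hr in brain (adjusted p = 0.258), heart (adjusted p = 0.198) or lung (adjusted p = 0.810). Without series 2 *Csf3* was called at 48 hr in brain (adjusted p = 0.00187) and heart (adjusted p = 0.00219). No fold is given, since the remaining controls had 0.181 and 0 CPM in brain and 0 and 0.164 CPM in heart, below the floor. In lung, where the remaining controls held 0 counts, *Csf3* was not called (adjusted p = 0.080). With all libraries the lung value at 48 hr was 5.98 ± 1.51 (adjusted p = 0.0593), and leaving out 0 hr replicate 2 or 48 hr replicate 1, 2 or 4 gave a call (adjusted p from 0.0264 to 0.0436). With all libraries the heart call at 48 hr (9.05 ± 2.06, adjusted p = 0.0120) was lost without 0 hr replicate 1 or 2. At 72 hr the series 4 library, replicate 5, had 206 CPM in brain, 60.1 in heart and 54.0 in lung, whereas the other 3 libraries of each tissue had at most 3.72 CPM. The mouse and the series cannot be told apart there, since series 4 gave 1 library a tissue at 72 hr. By 168 hr *Csf3* ranged from 0 to 0.305 CPM in brain, 0 to 0.472 CPM in heart and 0 to 1.15 CPM in lung.

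**Figure D4:**
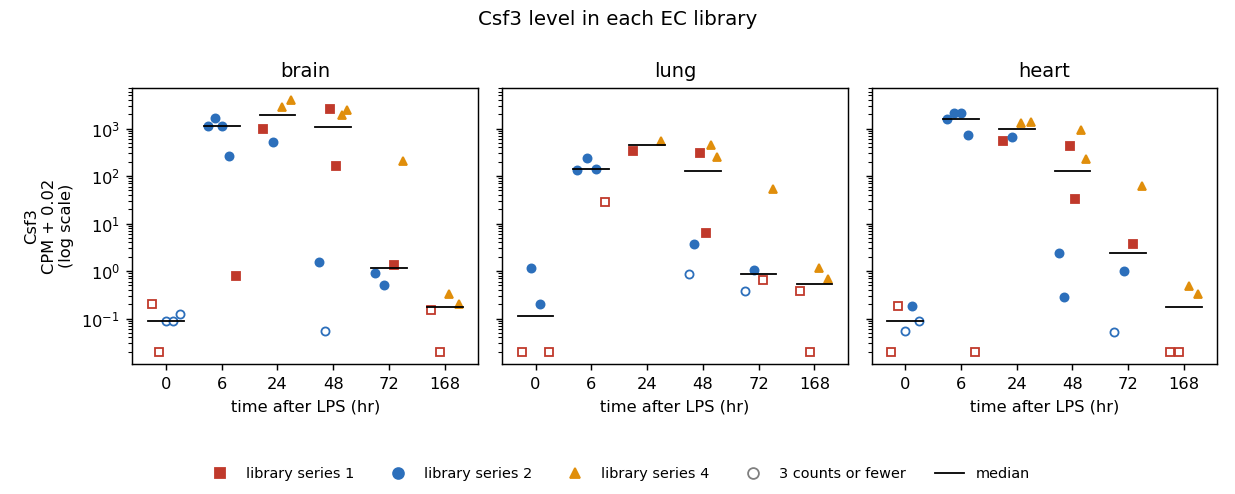
Level of *Csf3* in every kept library (y axis, CPM + 0.02 on a log scale) by time after LPS (x axis, hr, not to scale) in brain, lung and heart ECs. Squares, circles and triangles are library series 1, 2 and 4, open symbols had 3 counts or fewer, and lines are group medians. Medians rise from 0.0704 to 1108 CPM at 6 hr in brain and from 0.0668 to 1599 CPM in heart, and at 48 hr the series 2 circles sit below the rest.

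Levels at 24 hr were then compared with those at 6 hr in the same fit over all times, where the series term is estimated with the 0 hr libraries too. With all kept libraries 0 of the 30 tests passed (edgeR), 6 had an unadjusted p under 0.05 (5 in heart, 1 in brain), DESeq2 called 1 and limma-voom 0. Of all genes 4.74% passed in heart, 0.291% in brain and 0.00586% in lung by edgeR, 11.3%, 1.37% and 0.774% by DESeq2 and 4.82%, 0.192% and 0% by limma-voom. An unadjusted p under 0.05 was found in 3756 of 16024 heart genes, 2086 of 19234 brain genes and 1156 of 17058 lung genes. Leaving out the series 1 mouse changed this in heart ECs, where 30.6% of all genes then passed and 7 members were lower at 24 hr than at 6 hr, namely *Csf3* (log2 difference -3.02 ± 1.07 (SE), edgeR adjusted p = 0.0352), *Il1rn* (-3.33 ± 0.69, adjusted p = 0.00119), *Il1b* (-3.15 ± 0.90, adjusted p = 0.0101), *Il1a* (-2.39 ± 0.82, adjusted p = 0.0305), *Il1r2* (-2.31 ± 0.58, adjusted p = 0.00455), *Tnf* (-1.43 ± 0.51, adjusted p = 0.0348) and *Tnfrsf1b* (-0.82 ± 0.25, adjusted p = 0.0146). Within series 2 alone 8.07% of all heart genes passed and *Il1b* was the single member called (-3.78 ± 0.93, adjusted p = 0.0286), while *Csf3* had a difference of -1.32 ± 0.94 (adjusted p = 0.406). With 1 heart library of series 2 at 24 hr, the spread in that fit comes from the other groups, and the lone library is assumed to vary like them. No member was called in brain or lung without that mouse. For *Csf3* in brain the fitted difference with all libraries was -2.04 ± 1.53 (adjusted p = 0.658), lower at 24 hr once series was adjusted for, although the median level was higher at 24 hr (1922 against 1108 CPM).

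Whether the 6 hr response differed between EC beds was tested as an interaction. With all kept libraries 0 of the 30 tests passed (edgeR), 6 had an unadjusted p under 0.05, DESeq2 called 3 and limma-voom 0. By edgeR, of all genes 7.71% passed between brain and lung, 0.132% between brain and heart and 12.2% between lung and heart. DESeq2 called 12%, 0.885% and 20.2% of all genes in these comparisons and limma-voom 2.06%, 0.0738% and 6.56%. An unadjusted p under 0.05 was found in 4753, 1795 and 5569 of 18975 genes, beside 4, 0 and 2 of the 10 members, so that the members lie near or below the share of all genes between brain and heart and between lung and heart. For *Csf3* the response in brain minus that in lung was 4.48 ± 1.84 (SE) on the log2 scale (adjusted p = 0.127), and lung against heart gave a difference of -4.80 ± 1.84 (adjusted p = 0.0810). Without the series 1 mouse 4 of the 30 passed. These were *Csf3* between brain and lung (4.76 ± 1.08, adjusted p = 0.00881), *Csf3* between lung and heart (-5.26 ± 1.08, adjusted p = 0.00316), *Il1r2* between brain and lung (-2.90 ± 0.87, adjusted p = 0.0386) and *Il1rn* between lung and heart (adjusted p = 0.0248, with no fold given since heart was at 0). Of all genes 8.29%, 3.83% and 14.7% passed in that fit between brain and lung, brain and heart, and lung and heart. Within series 2 alone, *Csf3* passed between brain and lung (5.35 ± 1.06, adjusted p = 0.0142) and between lung and heart (-5.77 ± 1.06, adjusted p = 0.00623), while *Il1r2* between brain and lung (adjusted p = 0.0809) and *Il1rn* between lung and heart (adjusted p = 0.0630) did not. In that fit 3.48% of all genes passed between brain and lung and 9.36% between lung and heart. By the file names the tissues come largely from the same mice, and with the mouse as a block and all kept libraries 2 of the 30 passed, both between lung and heart, where 5.53% of all genes did. These were *Csf3* (-4.72 ± 1.39, adjusted p = 0.0475) and *Il1rn* (adjusted p = 0.0401). Between brain and lung the block gave an adjusted p of 0.0918 for *Csf3* and 0.0932 for *Il1r2*. No member passed between brain and heart in these edgeR fits, while DESeq2 with all kept libraries called *Tnf* there, a gene at 0 counts in the brain controls, beside 0.885% of all genes, and *Tnf* and *Il1r2* between brain and lung, beside 12%. The *Csf3* difference between brain and heart was -0.33 ± 2.08 with all libraries (edgeR adjusted p = 1.00).

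Before LPS the pull-downs from the 3 EC beds differed in their levels of these receptors and ligands. Their marker sums differed as well, with endothelial markers at 1119 to 2400.3 CPM in brain, 9516 to 10556 in heart and 8527 to 11457 in lung. Brain libraries also held neuron markers at 1050.0 to 4262 CPM. The part of other cell types in the differences between tissues was not tested. Per kilobase of exon, the median 0 hr level of *Tnfrsf1a* was 114 CPM in heart, 24.4 in brain and 16.7 in lung. Next in brain came *Il1r1* (3.74 CPM per kilobase), *Tnfrsf1b* (1.74) and *Il1rap* (1.23), in heart *Tnfrsf1b* (6.30) and *Il1r1* (5.27), and in lung *Tnfrsf1b* (6.65) and *Il1b* (2.07). The other members lay below 1 CPM per kilobase in each tissue. Of the 7 members with enough counts, 6 passed between brain and lung, 4 between brain and heart and 5 between lung and heart, where 64.3%, 54.8% and 61.1% of all genes passed, so that these counts lie near the share of all genes. *Il1a*, *Il1r2* and *Csf3* did not pass the filter on low counts in this fit.

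*Il1r1* was lower in lung than in brain ECs, with a brain minus lung difference of 3.05 ± 0.58 (SE) on the log2 scale (edgeR adjusted p = 3.13e-04), and lower in lung than in heart ECs (lung minus heart -3.26 ± 0.60, adjusted p = 3.19e-04). *Il1rap* was higher in brain than in lung (2.55 ± 0.41, adjusted p = 7.90e-05) or heart ECs (1.11 ± 0.34, adjusted p = 0.0119). *Il1b* was higher in lung ECs than in heart (lung minus heart 5.46 ± 0.76, adjusted p = 2.94e-05) or brain (brain minus lung -4.77 ± 0.73, adjusted p = 4.49e-05). *Tnfrsf1a* was lower in brain than in heart (-2.24 ± 0.47, adjusted p = 7.88e-04) and in lung than in heart (-1.71 ± 0.52, adjusted p = 0.0108, or 0.0512 without lung replicate 3). The brain minus lung difference of *Tnfrsf1a* (-0.53 ± 0.49, adjusted p = 0.353) turned to 0.59 (adjusted p = 0.0247) without lung replicate 4, the control library far above the others, and to 0.63 ± 0.25 (adjusted p = 0.0396) with the mouse as a block, the single 0 hr call that the block changed. Lung replicate 4 had 56.2% of reads on genes and the other lung controls 18.8 to 28.6%. It was also the highest lung control for *Il1r1* (15.0 CPM) and *Il1rap* (4.56 CPM). *Il1b*, *Il1r1* and *Il1rn* did not pass between brain and heart, nor *Tnf* (adjusted p = 0.221, or 0.0388 without lung replicate 1) and *Tnfrsf1b* between lung and heart. Within series 2 alone, with 3 controls each in brain and heart and 2 in lung, *Il1r1* was lower in brain than in heart (brain minus heart -0.75 ± 0.19, adjusted p = 0.00616) and *Tnf* lower in lung than in heart (lung minus heart -3.31 ± 0.99, adjusted p = 0.0185). *Il1rn* then passed between brain and heart (adjusted p = 0.0430), and *Il1r2*, which the filter kept in that fit, passed in all 3 comparisons (adjusted p up to 0.0454). In that fit 70.4%, 62.3% and 64.6% of all genes passed between brain and lung, brain and heart, and lung and heart. *Tnf* had 0 counts in every brain control and was lower there than in lung (adjusted p = 0.00414) and heart (adjusted p = 5.03e-04).

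In each tissue several members moved together with neutrophil markers (12 genes, among them *S100a8*, *S100a9* and *Ngp*). In lung their summed level was 43.8 to 221 CPM in the controls and 28.1 to 3832 CPM at 6 hr, where the shallow library was the lowest. It was 1533 to 2835 CPM at 24 hr, 655 to 4985 CPM at 48 hr and 769 to 1915 CPM at 72 hr, and was 27.9 to 251 CPM at 168 hr. Of 11 tested markers 7 passed at 6 hr, then 5, 6 and 2 at the next 3 times, all of them higher. Over the 24 lung libraries Spearman's rho with this sum was 0.91 for *Tnfrsf1b*, 0.89 for *Il1b*, 0.86 for *Il1rn*, 0.85 for *Il1r2*, 0.68 for *Tnf* and 0.51 for *Csf3*. It was 0.04 for *Il1r1*, -0.15 for *Tnfrsf1a*, -0.26 for *Il1a* and -0.63 for *Il1rap*. With the sum of the 10 endothelial markers it was -0.60 for *Csf3*, -0.57 for *Il1rn*, -0.57 for *Il1r2* and -0.54 for *Il1b*. It was -0.53 for *Tnfrsf1b*, -0.40 for *Tnf*, 0.15 for *Il1a*, 0.17 for *Tnfrsf1a*, 0.23 for *Il1r1* and 0.30 for *Il1rap*. The libraries share time point and depth, so the values describe these libraries only. *Il1b*, *Il1rn*, *Il1r2* and *Tnfrsf1b* are all made by neutrophils, and the part of such cells in the lung values was not tested.

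**Figure D5:**
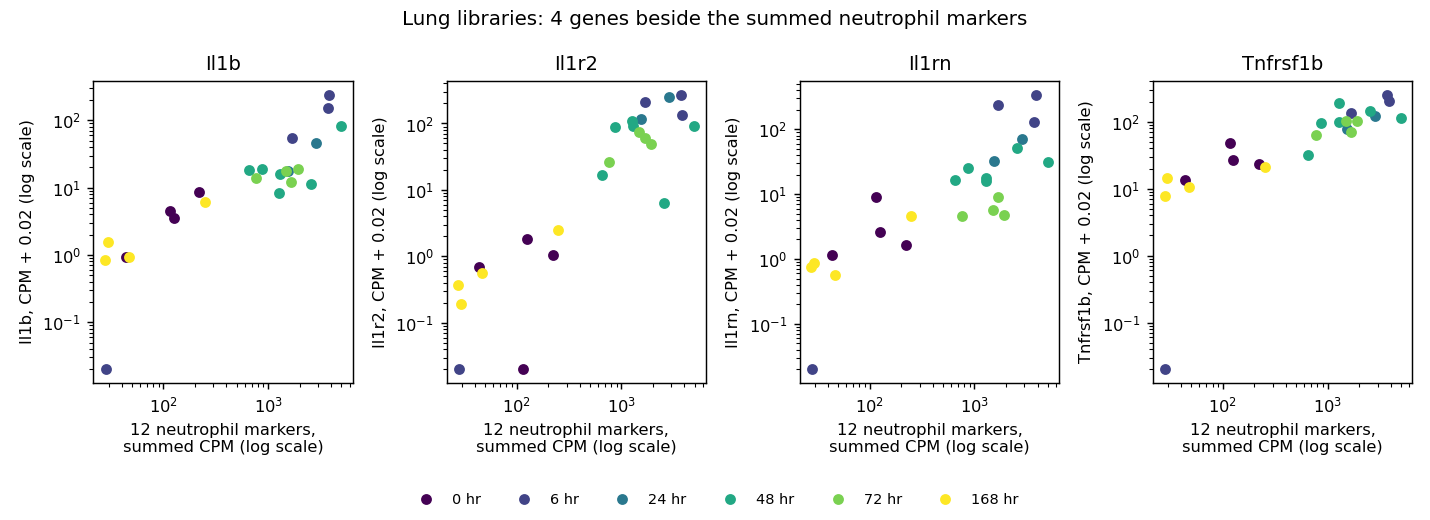
Level of *Il1b*, *Il1r2*, *Il1rn* and *Tnfrsf1b* (y axes, CPM + 0.02 on a log scale) against the summed level of the 12 neutrophil markers (x axis, CPM, log scale) in each of the 24 lung libraries, colored by time after LPS. Points at 0 and 168 hr sit at the lower left and those at 6 to 72 hr at the upper right, except the shallow 6 hr library at the bottom left, with Spearman's rho from 0.85 (*Il1r2*) to 0.91 (*Tnfrsf1b*).

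In heart libraries the neutrophil sum was 0.956 to 1.55 CPM at 0 hr, with *Ly6g*, *Elane*, *Camp* and *Mmp8* at 0 counts, and 0.986 to 63.4 CPM at 6 hr, when 7 of 8 tested markers rose. The sum was 8.90 to 33.9 CPM at 24 hr, 14.0 to 48.5 CPM at 48 hr and 1.89 to 24.0 CPM at 72 hr, when 6, 7 and 4 of the 8 passed, all of them higher, and 0.815 to 3.86 CPM at 168 hr. Over the 28 heart libraries Spearman's rho with this sum was 0.88 for *Tnf*, 0.84 for *Tnfrsf1b*, 0.83 for *Il1rn*, 0.83 for *Il1r2*, 0.80 for *Il1b* and 0.72 for *Csf3*, and -0.32 for *Il1rap*. In brain the sum was 6.43 to 57.2 CPM at 0 hr and 7.82 to 413 CPM at 6 hr, highest in replicate 2, the library that was also the highest for 9 of the 10 members (all but *Il1rn*), and 1 of 10 tested markers rose (3 of 10 without the series 1 mouse). At 48 hr the brain sum was 49.3 to 194 CPM and 5 of 10 rose. Spearman's rho with this sum over the 28 brain libraries was 0.79 for *Il1r2*, 0.66 for *Tnf*, 0.63 for *Il1rn* and 0.63 for *Il1a*, and lower for the other members. The sum of 10 monocyte and macrophage markers in brain was 23.9 to 84.3 CPM at 0 hr and 29.4 to 383 CPM at 6 hr, where 1 of 10 rose. It was 205 to 405 CPM at 24 hr, 237 to 429.9 CPM at 48 hr and 129 to 275 CPM at 72 hr, above every control in each library, when 2, 6 and 5 of the 10 rose, and 24.8 to 82.0 CPM at 168 hr. Over the 28 brain libraries Spearman's rho with their sum was 0.90 for *Il1r2*, 0.84 for *Il1rn*, 0.84 for *Tnf*, 0.80 for *Csf3* and -0.02 for *Il1rap*. Of 6 microglia markers 0 passed at 6 hr in brain (edgeR), and their sum was 129.7 to 226 CPM at 0 hr and 104 to 190.3 CPM at 6 hr, while without the series 1 mouse 2 of them fell (*P2ry12* and *Sall1*). The part of these cell types in the brain and heart values above was not tested. With the endothelial sum, Spearman's rho ran from -0.62 (*Il1rap*) to 0.54 (*Tnfrsf1b*) in brain and from -0.28 (*Il1a*) to 0.29 (*Tnfrsf1a*) in heart.

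The sum of the 10 monocyte and macrophage markers in lung was 258 to 679 CPM at 0 hr and 0 to 3832 CPM at 6 hr, with the shallow library at 0 and replicate 1 highest, at the same summed count as over its neutrophil markers. It was 261 to 316 CPM at 24 hr, 237 to 2883 CPM at 48 hr and 211 to 540 CPM at 72 hr. Of these markers 3 rose in lung at 6 hr (*Cd14*, *Fcgr1* and *Itgam*), with and without the series 1 mouse. Over the 24 lung libraries Spearman's rho with their sum was 0.66 for *Tnfrsf1b*, 0.61 for *Il1rn*, 0.58 for *Il1b* and 0.45 for *Tnf*, and -0.53 for *Il1rap*. In heart the sum was 33.5 to 59.5 CPM at 0 hr, 35.1 to 172 CPM at 6 hr and 39.0 to 54.6 CPM at 24 hr, the last within the control range. It was 45.0 to 324 CPM at 48 hr and 42.0 to 154 CPM at 72 hr. In heart the same 3 markers rose at 6 hr and *Csf1r* fell, as did *Lyz2* without the series 1 mouse. Spearman's rho in heart was 0.62 for *Il1b*, 0.58 for *Tnfrsf1b* and 0.47 for *Tnf*. Of 6 cardiomyocyte markers 2 rose in lung at 6 hr (*Myl2* and *Ttn*), with and without that mouse, and their sum there was 67.8 to 149 CPM at 0 hr and 130.2 to 2173 CPM at 6 hr, highest in replicate 2. In heart 2 of 6 rose at 6 hr without that mouse (*Tnni3* and *Tnnt2*). There 2 of 8 fibroblast and mural markers (*Col1a1* and *Pdgfra*) fell in the same fit. The part of these cells in the lung and heart values was not tested.

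The genes that carry the TNF and IL-1 signals onward were counted from lists fixed for this purpose. Of 13 genes from ligand release to the TNF receptor complex, 4 rose in brain ECs at 6 hr (*Birc2*, *Birc3*, *Cflar* and *Ripk1*), and in heart ECs 9 rose and 1, *Rhbdf1*, fell among 12 tested. Of the IL-1 pathway genes 5 of 18 rose in brain (*Il18bp*, *Il18rap*, *Irak2*, *Irak3* and *Myd88*), and 9 of 18 rose and 2 fell (*Irak1* and *Sigirr*, the latter an inhibitory receptor of the family) in heart. In lung ECs 0 of 12 TNF pathway genes and 1 of 19 IL-1 pathway genes passed, *Il18bp*. Of 8 shared kinases and adaptors, 1 rose in brain (*Map3k8*), 4 in heart (*Chuk*, *Ikbkb*, *Map3k8* and *Tab2*) and 0 in lung. These counts stand beside 6.44% of all genes past the threshold in brain, 42.8% in heart and 4.83% in lung, so that the 4 of 8 in heart lie near the share of all genes. The median log2 fold change of the TNF list at 6 hr was 0.86 in brain, 1.28 in heart and 0.35 in lung, beside medians over all genes of 0.004, -0.05 and -0.42.

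Without the series 1 mouse the 6 hr counts of the TNF list were 7 higher and 1 lower (*Tradd*) of 13 in brain, 9 higher and 1 lower of 12 in heart and 1 higher (*Birc3*) of 12 in lung. The IL-1 list had 7 higher and 1 lower (*Sigirr*) of 18 in brain, 9 higher and 2 lower of 18 in heart and 1 higher of 19 in lung, and the counts of the kinase list did not change. The TNF list medians were then 1.14, 1.60 and 0.83 in brain, heart and lung. In these fits 14.3% of all genes passed in brain, 58.4% in heart and 3.95% in lung, so that in heart the IL-1 list lies near the share of all genes and the kinase list, at 4 of 8, below it. The library left out was chosen after its values were seen.

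The largest of these differences in brain ECs were in *Irak3*, an inhibitor of IL-1 receptor signaling (log2 fold change 3.23 ± 0.60 (SE), adjusted p = 0.00123), *Birc3*, a ubiquitin ligase of the TNF receptor complex (log2 fold change 3.19 ± 0.52 (SE), adjusted p = 4.23e-04), the kinase *Map3k8* (log2 fold change 3.08 ± 0.62 (SE), adjusted p = 0.00268) and the IL-18 receptor chain *Il18rap* (log2 fold change 3.00 ± 0.62 (SE), adjusted p = 0.00326). In heart ECs they were in *Csf2rb*, the common beta chain of the GM-CSF receptor (log2 fold change 4.30 ± 0.78 (SE), adjusted p = 2.57e-04), *Irak3* (log2 fold change 4.04 ± 0.55 (SE), adjusted p = 1.84e-05), the macrophage growth factor *Csf1* (log2 fold change 3.99 ± 0.51 (SE), adjusted p = 1.24e-05) and the IL-18 antagonist *Il18bp* (log2 fold change 3.59 ± 0.43 (SE), adjusted p = 8.97e-06). In lung ECs they were in *Csf2*, which encodes GM-CSF (log2 fold change 6.60 ± 1.42 (SE), adjusted p = 0.00761), and *Il18bp* (log2 fold change 2.87 ± 0.79 (SE), adjusted p = 0.0301). Of 6 colony-stimulating factor genes besides *Csf3*, 2 of 5 tested rose in brain, 4 rose and *Csf1r* fell in heart and *Csf2* alone rose in lung at 6 hr, where *Csf1* rose as well without the series 1 mouse. Without that mouse the log2 fold changes in brain were 3.68 ± 0.45 for *Irak3*, 3.63 ± 0.40 for *Birc3*, 3.53 ± 0.53 for *Map3k8* and 3.50 ± 0.45 for *Il18rap*. In heart they were 4.71 ± 0.71 for *Csf2rb*, 4.47 ± 0.36 for *Irak3*, 4.42 ± 0.33 for *Csf1* and 4.01 ± 0.25 for *Il18bp*, and in lung 7.49 ± 1.41 for *Csf2* and 3.28 ± 0.77 for *Il18bp*, all of them past the threshold. *Csf3r*, the receptor of G-CSF and a neutrophil gene, had medians of 0.861 CPM in brain, 0.815 in heart and 22.3 in lung at 6 hr.

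The lists were also counted at later times, when 11.2% and 14.2% of all genes passed in brain and 16.2% and 4.19% in heart (24 and 48 hr). In brain ECs 6 of 13 TNF pathway genes (*Birc2*, *Birc3*, *Lta*, *Rhbdf2*, *Ripk1* and *Traf2*) and 7 of 18 IL-1 pathway genes (*Il18bp*, *Il18rap*, *Il1rl2*, *Irak2*, *Irak3*, *Myd88* and *Nlrp3*) rose at 24 hr, and 6 and 5 at 48 hr. In heart ECs 5 of 12 TNF pathway genes rose at 24 hr, and of 18 IL-1 pathway genes 6 rose and *Sigirr* fell. At 48 hr *Birc3* was the TNF pathway gene left in heart, with 4 IL-1 pathway genes (*Il18bp*, *Il18rap*, *Irak2* and *Irak3*). Of the colony-stimulating factor genes 2 of 5 rose in brain at 24 hr and 4 at 48 hr, when *Csf3r* was among them. In lung ECs none of these genes was called at 24 hr, *Csf3r* alone at 48 hr, and at 168 hr none in any tissue (edgeR).

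Genes with the most similar pattern were sought over the 18 tissue and time groups by Pearson's r of mean log2 CPM. For *Csf3* they were *Cxcl2* (0.96), *Lcn2* (0.94) and *Serpina3f* (0.93). For *Tnf* they were *Stx11* (0.97), *Casp4* (0.94) and *Tnfaip3* (0.94) and for *Il1a* *Eloc* (0.77), *Pmaip1* (0.75) and *Gm13889* (0.75). For *Il1rn* they were *Cebpb* (0.93), *Dusp2* (0.91) and *Nr4a1* (0.91) and for *Il1r2* *Rpf2* (0.94), *S100a8* (0.93) and *Gm15417* (0.93). For the receptors they were *Sgk1* (0.96), *Dhrs3* (0.95) and *Uba2* (0.95) beside *Tnfrsf1a*, *Nop53* (0.93), *Hcls1* (0.93) and *Galnt1* (0.92) beside *Tnfrsf1b*, *Gtdc1* (0.98), *Ranbp9* (0.98) and *Mad2l2* (0.98) beside *Il1r1* and *Grsf1* (0.98), *Ehbp1* (0.97) and *Hdgfl3* (0.97) beside *Il1rap*. These are the highest values among all expressed genes over groups that share libraries and tissues, and they describe likeness only.

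Brain and heart libraries of the same mouse, as read from the file names, were set side by side for the 19 mice with both at 6 to 72 hr. Spearman's rho between the levels was 0.89 for *Tnfrsf1a*, 0.83 for *Il1b*, 0.80 for *Csf3*, 0.78 for *Il1rn* and 0.72 for *Il1r1*. It was 0.56 for *Il1a*, 0.49 for *Tnf*, 0.49 for *Il1r2*, 0.34 for *Tnfrsf1b* and 0.16 for *Il1rap*. Mice share time point and library series, so these values are a description of the 19 mice. The mice with low *Csf3* in brain at 6 and 48 hr, the series 1 mouse at 6 hr and the series 2 mice at 48 hr, were low in heart as well.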

How the data were processed

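Ribosome-bound mRNA of ECs was measured by RNA sequencing in 98 libraries from brain, lung and heart. According to the submitters' processing notes the authors used STAR 2.4.2 and HTSeq 0.6.1 on mm10. The files deposited by the authors hold raw counts per Ensembl gene and sequencing run, not normalized. The 217 runs were summed to libraries, grouped by the tissue and time in the labels, and lines that name no gene were kept out of library sizes, which left 53.4 to 70.0% of reads on genes in the kept brain libraries, 3.40 to 61.0% in lung and 43.7 to 68.9% in heart. Libraries with under 3% of reads on genes were left out (18), and of 52550 gene identifiers 52403 matched the annotation. Members and gene lists were chosen with earlier results of these data known.

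Each tissue was fitted over all times with edgeR 4.0.16 (R 4.3.3; filterByExpr, TMM, quasi-likelihood F test, library series as covariate, two-sided, Benjamini-Hochberg over all genes of the fit, threshold 0.05). Tissues were compared at 0 hr, and in their 6 hr response, in fits of their own. Nothing in the labels says which libraries of a group come from separate animals beyond the replicate number, so p-values measure the spread between libraries. CPM is the count per 1000000 of TMM effective library size without a prior count. The alternatives were DESeq2 1.42.0, limma-voom (limma 3.58.1) and RLE scaling in place of edgeR and TMM, all genes in place of those past the filter, fits with the covariate dropped or a block by replicate number or mouse added, and other choices of libraries, with each library left out in turn. By the file names, brain and heart libraries of the same number came from the same mouse for 27 of 28 mice, and brain and lung libraries for 15 of 23, so the mouse block pairs the tissues. The correlation of same-number deviations of brain and heart at 6 hr was 0.25 to 0.43. For brain and heart at 0 hr, and for either with lung at 0 or 6 hr, it was -0.23 to 0.14. The fits were tested on simulated data.

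All 10 members were named in every group. From the pathway lists, up to 4 genes per tissue with the largest 6 hr change past the threshold and a mean log2 CPM of at least 2 were named, and for each member the 3 genes with the highest Pearson's r (those for *Il1b* are not reported here). Tables were made with pandas 2.3.3 and scipy 1.17.1 under Python 3.11.15, and plots with matplotlib 3.10.9.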

Additional observations from a re-analysis of the deposited data

Results flagged for a closer look

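Of 161 combinations of gene and group with 4 to 6 libraries, 23 held a library farther from its group than Dixon's 95% critical value allows. For independent, normally distributed values chance gives about 1 in 20. Many of these CPM values lie at or near 0 and the genes share libraries, so that rate need not hold here. The series 1 mouse at 6 hr accounted for 12 of them. In heart it had *Tnf* at 1.18 CPM (others 17.7 to 49.8), *Il1a* at 0 CPM (others 0.615 to 1.12), *Il1b* at 0.0658 CPM (others 4.26 to 7.46), *Il1r2* at 0.0658 CPM (others 1.66 to 4.00), *Il1rn* at 0 CPM (others 14.4 to 24.0) and *Csf3* at 0 CPM (others 738 to 2083). In brain it had *Il1rn* at 0 CPM (others 8.02 to 44.2) and *Csf3* at 0.766 CPM (others 258 to 1649). In lung, where this library is the shallow one, *Tnfrsf1a*, *Tnfrsf1b*, *Il1r2* and *Il1rn* were at 0 CPM, against at least 46.7, 135, 133 and 131 CPM in the other 3 libraries.

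Of the other 11, *Csf3* in brain 72 hr replicate 5 was at 206 CPM (others 0.480 to 1.35), and *Tnfrsf1a* in lung 0 hr replicate 4 at 329 CPM (others 40.7 to 45.0). *Tnfrsf1a* also stood low in brain 168 hr replicate 1, at 81.2 CPM (others 118 to 126), and in heart 168 hr replicate 2, at 247 CPM (others 280.0 to 284). *Il1b* stood high in lung 48 hr replicate 1, at 82.9 CPM (others 8.33 to 18.9), and *Il1rap* in brain 6 hr replicate 2, at 23.2 CPM (others 14.0 to 16.0). *Il1a* in heart 24 hr replicate 4 was at 0.0530 CPM (others 0.212 to 0.249), *Il1r1* in lung 72 hr replicate 3 at 0.616 CPM (others 4.02 to 5.27) and *Il1rn* in heart 72 hr replicate 1 at 0 CPM (others 0.752 to 0.859). *Il1rap* was at 0 CPM (others 1.82 to 10.1) in lung 48 hr replicate 2 and at 0 CPM (others 2.30 to 2.98) in lung 72 hr replicate 1. The cause was not tested.

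*Csf3* was also seen in libraries left out for their low share of reads on genes, which entered no comparison other than the fits to all 98 libraries. The left-out brain library at 6 hr had 46.2 CPM (30 counts) and that at 24 hr 41.6 CPM (24 counts), against 1.72 CPM (1 count) in the left-out brain library at 0 hr. The left-out heart libraries had 24.3 CPM at 6 hr (16 counts) and 36.9 CPM at 24 hr (19 counts), against 0 counts at 0 hr, which allow up to 4.76 CPM.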

How the results depend on the processing

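Of the 50 tests in each time course of 10 members over 5 times, 26 passed in brain, 22 in heart and 10 in lung. Leaving out 1 library at a time, with changes counted only in comparisons that include its group, gave 23 to 27, 16 to 24 and 7 to 12. Counted over all times, leaving out the series 1 mouse at 6 hr gave 28 in brain, 27 in heart and 11 in lung. Within series 2 the counts were 17 in brain over the 4 times it could be fitted (7 of them at 24 hr, where series 2 has 1 brain library) and 0 in lung over 3 times, where 7 passed with all libraries, and without series 2 the lung count was 2 over 4 times, where 5 passed. In lung DESeq2 gave 17, beside 13.5, 1.4, 2.98 and 1.93% of all genes at 6, 24, 48 and 72 hr, and no low-count filter 16, beside 5.19, 0.516, 1.02 and 0.425%, and in heart limma-voom gave 14, beside 45.9, 14.5, 1.95 and 0%. For 24 hr against 6 hr, where 0 of 30 passed, DESeq2 gave 1, no low-count filter 3, no covariate 3, series 2 alone 1 (in heart, against 1 library at 24 hr), and leaving out the series 1 mouse 7, with 0 to 7 when 1 library was left out (7 without heart 6 hr replicate 5). For the 6 hr response between tissues, where 0 of 30 passed, DESeq2 gave 3, no low-count filter 4, all 98 libraries 1, series 2 alone 2, the mouse block 2 and leaving out the series 1 mouse 4, with 0 to 2 when 1 library was left out. At 0 hr 15 passed, against 21 within series 2, where a further member was tested, and 14 to 18 when 1 library was left out. The brain minus lung difference of *Tnfrsf1a* at 0 hr turned from -0.53 to 0.63 with the mouse as a block (adjusted p = 0.0396) and to 0.59 without lung 0 hr replicate 4 (adjusted p = 0.0247), with a lowest value of -0.81 without lung 0 hr replicate 3. The causes were not tested.

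Within a tissue the replicate numbers did not pair the libraries of different times. Of 15 pairs of groups that share numbers, 0 had every same-number correlation above 0.1, the correlations ran from -0.65 to 0.74, and in 24 of 114 cases a library correlated best with its own number. With the replicate block 23 tests passed in brain (26 without the block), 13 in heart (22) and 8 in lung (10). In these fits 6.54, 4.36, 10.3 and 2.83% of all genes passed in brain at 6, 24, 48 and 72 hr, 43.5, 10.1, 1.3 and 0.00624% in heart and 4.2, 0, 0.375 and 0.117% in lung.

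Over all genes the number past the threshold moved more than 1.5 times in 16 of the 24 comparisons with DESeq2, 14 with no low-count filter, 11 with limma-voom, 11 with the replicate block and 9 with no covariate. Fewer than 24 comparisons were fitted within series 2, where 13 moved, and without the series 1 mouse, where 9 moved. Without that mouse the number went from 1238 to 2760 in brain at 6 hr and from 760 to 4896 in heart at 24 against 6 hr. Within series 2 it went from 2738 to 293 in brain at 48 hr. RLE scaling moved the median of all genes from -0.42 to -0.11 on the log2 scale at lung 6 hr, and no member changed direction with it. Depth limits lung 6 hr replicate 4 most, where members below 3 counts cannot be told from 0.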
